A study of Mus musculus with 19 samples.

Results

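The comparison described here set hippocampal small RNA of mice given ketamine 24 h earlier against that of vehicle-treated control mice, on 7 of the 19 miRNA arrays of the series. The members were taken by their titles, ketamine replicates 1 to 3 and control replicates 1 to 4. The tissue was the right hippocampus, taken from male C57BL/6 mice of adult age. Ketamine mice had 10 mg/kg by intraperitoneal injection and were sampled at 24 h (n = 3). Control mice had vehicle by the intranasal route over 3 days, with 5 µL in each nostril on alternate days (n = 4). No group that received vehicle intraperitoneally was analysed here, so drug and route of administration cannot be told apart. The 12 other arrays carried intranasal siRNA against GSK3b (siGSK3b, 10 µg, or 11 µg in replicate 4), the intranasal GSK3 inhibitor peptide L803mts (60 µg, or 61 µg in replicate 4) and lithium in chow for 4 weeks, with n = 4 each. The lithium dose is 0.2% in the sample labels but 2% in their protocol text. They enter below only through the shared estimate of spread and through comparisons named as such. The labels number the replicates but do not say that each was a separate mouse, and the spread that the p-values measure may be technical.

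MicroRNAs are short RNAs that guide Argonaute proteins to partly complementary messenger RNAs, which are then translated less or degraded. In the hippocampus they act on transcripts that shape synapses, and some change in level with neuronal activity. Ketamine is an anaesthetic that blocks the NMDA class of glutamate receptors and, at low doses, acts as a fast antidepressant. GSK3, the kinase on which the other 3 treatments converge, is inhibited by lithium and is phosphorylated on an inhibitory serine after ketamine in rodent brain.

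Each array held 3 spots for each of 3432 probes. The files give probes only vendor codes, of an ORB, a number or an IGN type, and do not pair them with miRNA names. Members are therefore given by code, with no sequence, and the lists of brain miRNAs, of miRNAs tied to GSK3 or to ketamine and of cell type markers could not be applied to them. The labelled tissue could likewise not be checked against markers. A level below is a normalized log2 intensity, the mean over the 3 spots of a probe after background correction and quantile normalization. An offset of 50 was added before the log2 step, so 1 unit is not an exact doubling of fluorescence, least of all for dim probes. For probe ORB_1112398 the ketamine minus control difference was -1.48 on this scale and -2.21 with plain background subtraction. Levels of different probes are not comparable with each other. In tissue RNA, fewer cells of a type and less RNA per cell cannot be told apart.

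The ketamine and control arrays overlapped in median brightness and in probes above background. They did not overlap in local background and in spots not found. Median foreground intensity was 187, 162 and 165 scanner units on the ketamine arrays, against 172, 161, 148 and 146 on the control arrays. Local background was 109, 103 and 105 on the ketamine arrays, against 101, 95.5, 90 and 92 on the control arrays, so every ketamine array lay above every control array. Spots that the scanner software did not find numbered 4230, 4206 and 4488 of 10336 on the ketamine arrays, and 3714, 3708, 3658 and 4167 on the control arrays, again with no overlap. Probes above background did overlap, at 3289, 3368 and 3348 on the ketamine arrays, against 3306, 3352, 3380 and 3260 on the control arrays. Bad-flagged spots numbered 88, 0 and 0 on the ketamine arrays, against 0, 0, 0 and 2 on the control arrays. A labelled spike-in averaged 27032, 115 and 24205 scanner units on the ketamine arrays, against 30265, 120, 20214 and 107 on the control arrays, so that replicates 1 and 3 of both groups had it and the other replicates were near background. The differences in background and in not-found spots each had the smallest p that 3 arrays against 4 allow in an exact two-sided permutation test (p = 0.0571, adjusted p = 0.143 over 5 array measures). Pairs of arrays correlated across probes at 0.990 to 0.994 between ketamine and control, at 0.995 to 0.997 within ketamine and at 0.991 to 0.997 within control. The 3 ketamine arrays were on 1 slide and the 4 control arrays on another, and no slide held both, so treatment and slide cannot be told apart for any result below.

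In ketamine hippocampus a small share of probes differed from control, with more and larger falls than rises over all tested probes, an order of the counts that was turned when probes with unequal spots were left out. Of 3421 tested probes 116 changed (3.39%), 46 upward (1.34%) and 70 downward (2.05%), by limma with Benjamini-Hochberg adjustment at a threshold of 0.05. The median called rise was 0.35 log2 units and the median called fall -0.64. A change of more than 1 log2 unit was reached by 2 rises and 20 falls, and one of more than 0.5 by 9 rises and 50 falls. All 46 rises and all 70 falls had ketamine and control arrays that did not overlap, as had 13.6% of all tested probes (6.99% with ketamine higher, 6.61% with ketamine lower). At an unadjusted p under 0.05 there were 483 probes (14.1%).

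The split between directions depended on scaling, on spot flags and on 78 probes whose spots disagree, described below. With those 78 left out, 35 probes rose and 25 fell. With arrays scaled to a common median in place of quantile normalization, 6 probes rose and 68 fell. With not-found spots left out, 2 rose and 48 fell among the 2785 probes that then remained. The probes nearest to the threshold were 1756 (difference -0.73, adjusted p = 0.0481) and 3116 (0.36, adjusted p = 0.0491) inside it, and ORB_1112475 (-0.41, adjusted p = 0.0502) and ORB_1112344 (0.20, adjusted p = 0.0515) outside it.

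**Figure D1:**
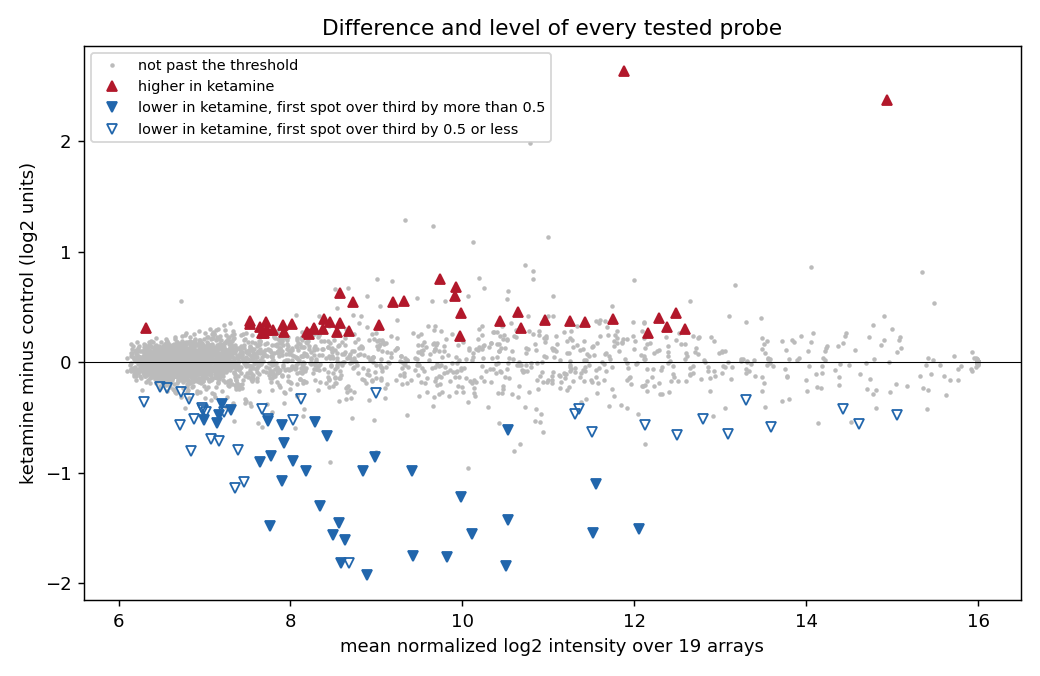
Each point is 1 of 3421 tested probes. The horizontal axis is its mean normalized log2 intensity over the 19 arrays and the vertical axis its ketamine minus control difference in log2 units. Red triangles are the 46 rises, filled blue triangles the 35 falls whose spot 1 exceeded spot 3 by more than 0.5 log2 units, and open blue triangles the 35 other falls. Among the rises, the 2 beyond 1 log2 unit stand apart, while the rest of the rises lie at 0.75 or less. Of the probes that did not pass, 5 also differed by more than 1 log2 unit, with the largest difference at 1.98.

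A pair of ORB-coded probes stood apart among the rises. ORB_0511275, in block 7 of the array, had levels of 13.10, 13.45 and 13.18 on the ketamine arrays, against 10.48, 10.43, 10.89 and 10.65 on the control arrays. The ketamine arrays lay within 0.4 units of each other and the groups were more than 2 units apart. The difference was 2.63 log2 units (SE 0.38, adjusted p = 0.000807), or 6.19-fold on the scale with the offset. Its 3 spots behaved alike, with ketamine over control ratios of mean background-subtracted intensity of 6.37, 4.65 and 6.11.

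ORB_1210051, in block 3, had levels of 16.00, 16.00 and 15.81 on the ketamine arrays, against 13.33, 13.48, 13.55 and 13.90 on the control arrays. It was saturated on 2 of the 3 ketamine arrays and on no control array (0 of 4), so that 1 ketamine array measured it fully. The fitted difference was 2.37 log2 units (SE 0.28, adjusted p = 0.000114), which is no bound, since it depends on normalization. The ketamine over control ratios of mean background-subtracted intensity at its 3 spots were 4.93, 5.84 and 3.83. These ratios are cut off too, since the 2 saturated ketamine arrays were at or near the scanner ceiling at each spot. The calls of ORB_0511275 and ORB_1210051 held in each of the 24 alternatives run on them, with differences of 2.42 to 2.77 for ORB_0511275 and of 2.03 to 2.54 for ORB_1210051. The range of ORB_1210051 carries the same saturation.

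The next rises were much smaller. ORB_1210381 had levels of 10.07, 10.11 and 10.32 on the ketamine arrays, against 9.31, 9.62, 9.39 and 9.35 on the control arrays, a difference of 0.75 (SE 0.09, adjusted p = 0.000164). ORB_0510078 had levels of 10.62, 10.34 and 10.46 on the ketamine arrays, against 9.84, 9.88, 9.75 and 9.72 on the control arrays, a difference of 0.68 (SE 0.11, adjusted p = 0.00135). Probe 3268 had levels of 8.81, 8.85 and 8.90 on the ketamine arrays, against 8.29, 8.30, 8.17 and 8.14 on the control arrays, a difference of 0.63 (SE 0.10, adjusted p = 0.00171). In each of these 3 the groups were further apart than the spread within either of them.

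ORB_0510307 had the lowest adjusted p of all tested probes together with 3282. Its levels were 9.56, 9.54 and 9.62 on the ketamine arrays, against 9.04, 8.96, 8.97 and 9.11 on the control arrays, a difference of 0.56 (SE 0.05, adjusted p = 4.72e-05). ORB_0511551 (0.60, SE 0.15), ORB_0510310 (0.55, SE 0.08) and ORB1012 (0.54, SE 0.06) rose by similar amounts, at adjusted p = 0.0295, 0.000500 and 0.000114. The last of the 12 largest rises were ORB_0510306 (0.45, SE 0.11, adjusted p = 0.0267), ORB_0510326 (0.45, SE 0.08, adjusted p = 0.00308) and ORB_0511276 (0.44, SE 0.08, adjusted p = 0.00214). ORB_0511276 carries the code next to that of ORB_0511275 and lay at 12.71, 12.59 and 12.60 on the ketamine arrays, against 12.37, 12.14, 12.08 and 12.18 on the control arrays.

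The smaller rises depended on scaling and on spot flags. Median scaling ended the calls of ORB_0510078, ORB_0511551, ORB_0510307, ORB_0510310, ORB1012, ORB_0510306, ORB_0510326 and ORB_0511276. Leaving out not-found spots ended those of the same 8 and of ORB_1210381 and 3268. ORB_0510306 also lost its call without any 1 of 6 of the 7 arrays, all but control replicate 3, and ORB_0511551 without ketamine replicate 1 or 2 or control replicate 1, 2 or 4.

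**Figure D2:**
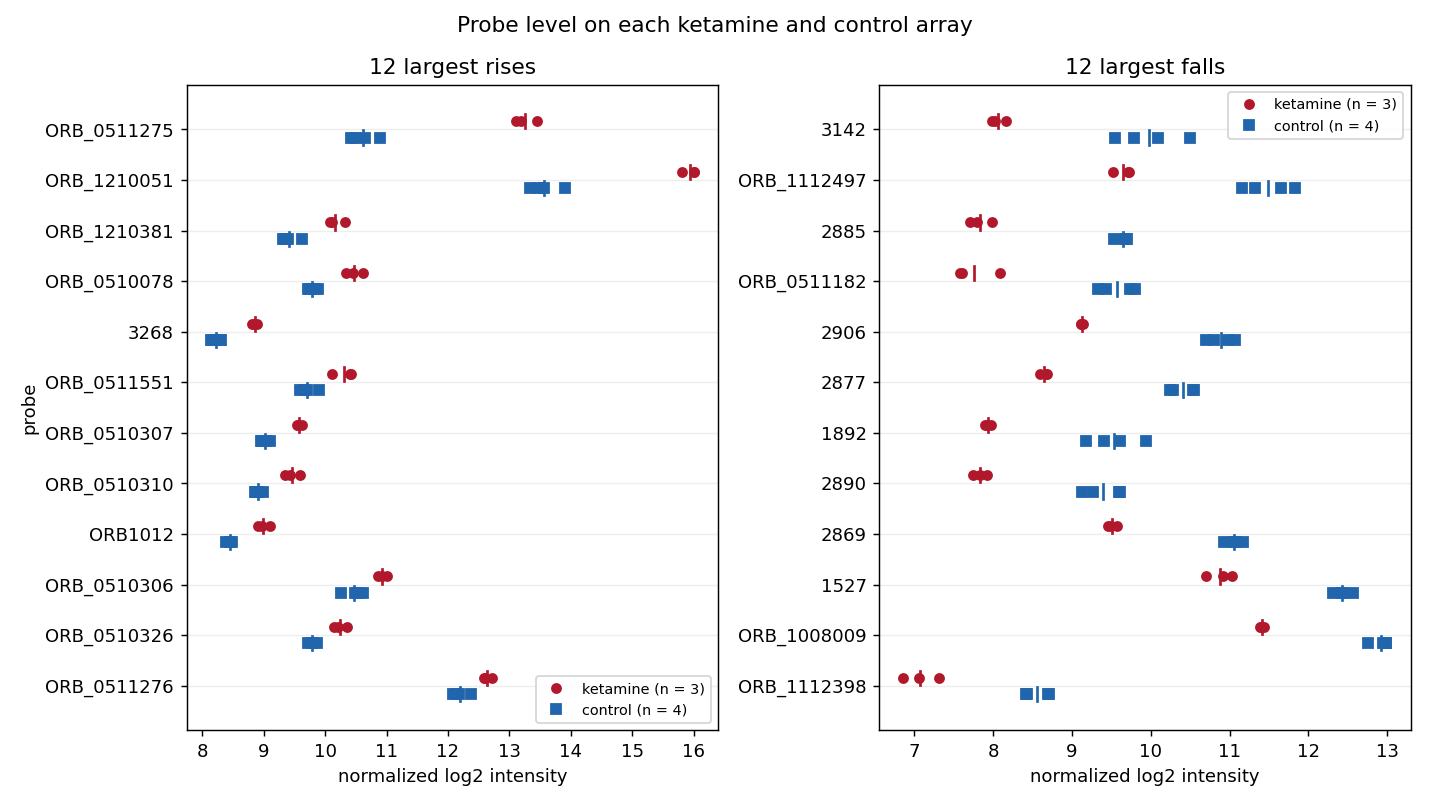
Normalized log2 intensity (horizontal axis) of the 12 largest rises (left) and 12 largest falls (right), 1 probe per line, with red circles for the 3 ketamine arrays above blue squares for the 4 control arrays and short bars for the group means. The probes were chosen to have groups that do not overlap, which held for 13.6% of all tested probes. The control arrays of 3142 spread from 9.54 to 10.50, and the ketamine arrays of 2906 from 9.12 to 9.14.

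Among the falls, 3142 was lowered most. This number-coded probe of block 2 had levels of 8.17, 7.98 and 8.03 on the ketamine arrays, against 10.50, 10.09, 9.79 and 9.54 on the control arrays. It differed by -1.92 (SE 0.32, adjusted p = 0.00195), or 26.4% of control on a scale that carries the background offset of 50. With plain background subtraction it differed by -2.37, and the ratios at single spots, given below, were lower too. There was a wide spread among the control arrays and a narrow one among the ketamine arrays. ORB_1112497, in block 1, had levels of 9.71, 9.72 and 9.52 on the ketamine arrays, against 11.82, 11.65, 11.32 and 11.16 on the control arrays, a difference of -1.84 (SE 0.40, adjusted p = 0.0150). The call did not survive the removal of any 1 ketamine array, nor the median of the 3 spots (highest adjusted p = 0.0661).

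Probe 2885, in block 3, had levels of 7.99, 7.79 and 7.71 on the ketamine arrays, against 9.54, 9.70, 9.68 and 9.67 on the control arrays, a difference of -1.82 (SE 0.22, adjusted p = 0.000159). ORB_0511182, in block 1, had levels of 8.09, 7.59 and 7.60 on the ketamine arrays, against 9.73, 9.80, 9.33 and 9.43 on the control arrays, a difference of -1.81 (SE 0.31, adjusted p = 0.00214). Probe 2906, in block 3, had levels of 9.14, 9.12 and 9.12 on the ketamine arrays, against 10.80, 10.98, 11.06 and 10.71 on the control arrays, a difference of -1.76 (SE 0.29, adjusted p = 0.00172). The gap between the groups exceeded the range within either of them for all 3.

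Falls on the log2 scale followed for 2877 (-1.75, SE 0.30, adjusted p = 0.00208), 1892 (-1.60, SE 0.29, adjusted p = 0.00336) and 2890 (-1.56, SE 0.26, adjusted p = 0.00195). Probe 2869, among the 3 with the lowest adjusted p, had levels of 9.49, 9.45 and 9.57 on the ketamine arrays, against 11.08, 11.04, 11.17 and 10.93 on the control arrays, a difference of -1.55 (SE 0.16, adjusted p = 4.78e-05). The same size of fall was seen for 1527 (-1.55, SE 0.37, adjusted p = 0.0274), ORB_1008009 (-1.51, SE 0.28, adjusted p = 0.00372) and ORB_1112398 (-1.48, SE 0.19, adjusted p = 0.000192). The call of 1527 was lost in each of the 7 fits that left out 1 array and in 3 others, those with trend and robust moderation, with not-found spots left out and with the median of the 3 spots (highest adjusted p = 0.109).

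Probe 3282 had a smaller but even fall. Its levels were 7.09, 7.09 and 6.89 on the ketamine arrays, against 7.79, 7.85, 7.91 and 7.74 on the control arrays, a difference of -0.80 (SE 0.08, adjusted p = 4.72e-05). The falls of 3142, 2885, ORB_0511182, 2906, 2877, 1892, 2890, 2869, ORB_1008009, ORB_1112398 and 3282 kept their calls in every alternative run on them. All of these but ORB_0511182 and 3282 are among the probes with unequal spots described below. The alternative that left such probes out could therefore not be run on them.

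Many of the probes that fell, but not all, shared a feature of the array. Their 3 spots disagreed in the order of the grid, the first being brighter than the third, on ketamine and control arrays alike. The calls averaged the spots and did not use this order. Probe 3142 read 660, 164 and 78 scanner units over background at spots 1, 2 and 3 on ketamine replicate 1, against 5741, 1407 and 612 on control replicate 1. Both arrays thus showed a steep drop along the 3 spots, and the ketamine array lay below at each of them. Over the arrays of each group the ketamine over control ratio was 0.167, 0.158 and 0.173 at the 3 spots.

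A first spot that exceeded the third by more than 0.5 log2 units, over the arrays, was found in 78 of 3421 tested probes (2.28%). Of the 70 falls 35 had it (50%), and of the 46 rises none did (0 of 46). Turned round, 35 of these 78 probes fell (44.9%) and none rose (0 of 78), against 35 falls and 46 rises among the 3343 other probes. The median SD between the 3 spots within an array was 0.37 log2 units for the falls, 0.13 for the rises and 0.15 for all tested probes. Of the 12 largest falls, 11 had such unequal spots, with the first spot over the third by 0.52 (2890) to 2.49 (3142). ORB_0511182, at 0.46, was the exception. With the 78 probes left out before the fit, 35 rises and 25 falls were called. The part of spot inequality in the falls was not tested.

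Each spot taken alone gave the same direction. The 70 falls were lower in ketamine in 70 probes by the first spot, in 70 by the second and in 69 by the third, with median differences of -0.84, -0.68 and -0.59. The 46 rises were higher in ketamine in all 46 by each spot, with median differences of 0.38, 0.31 and 0.39. Fits on single spots called 25 rises and 54 falls by the first, 17 and 36 by the second and 22 and 43 by the third. Since these spots are the ones that the calls average, the direction is a description and not a repeat measurement.

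**Figure D3:**
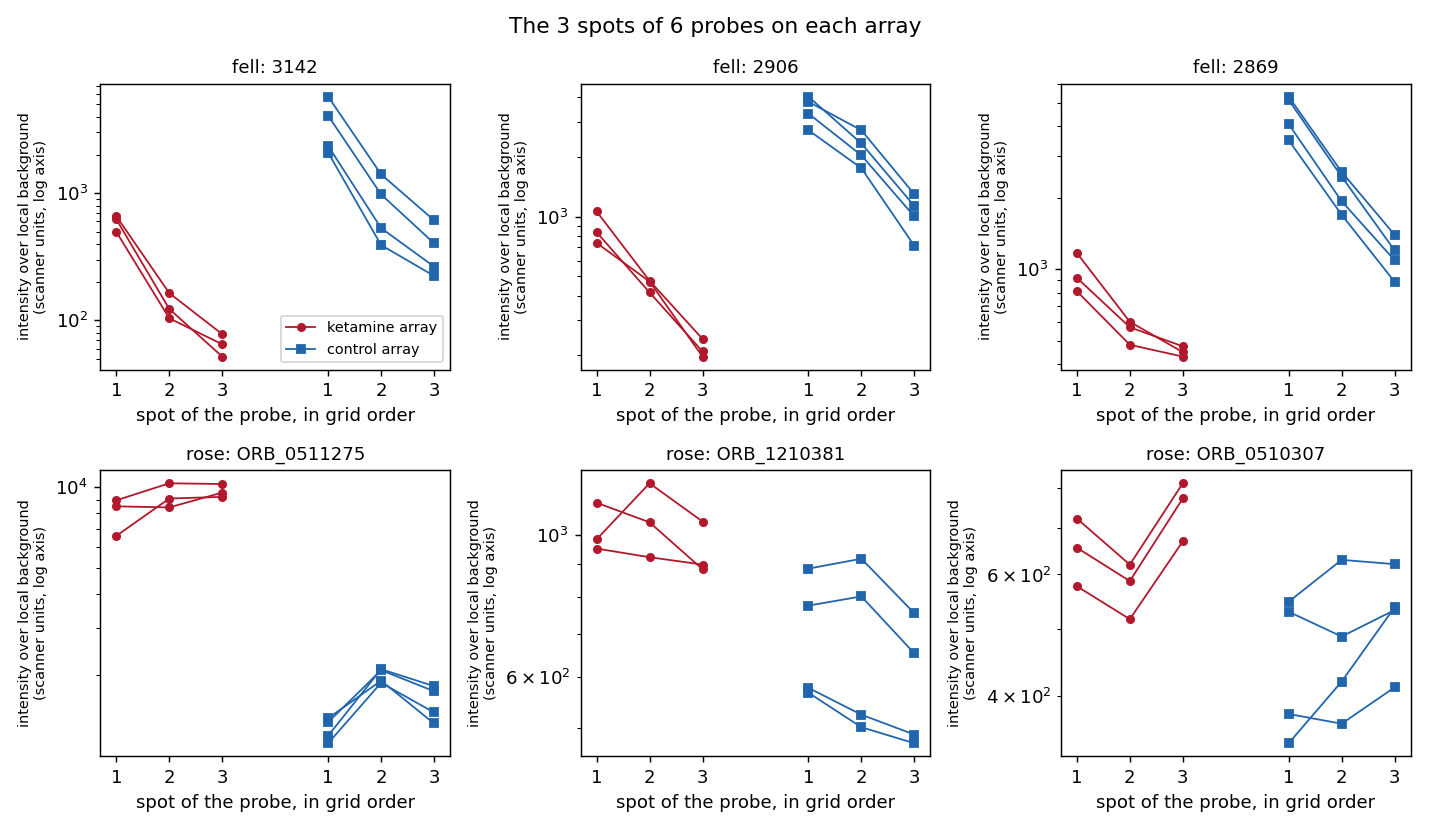
Background-subtracted intensity in scanner units (vertical log axis) at the 3 spots of a probe in grid order (horizontal axis), with 1 line per array, ketamine in red at the left and control in blue at the right. The upper row holds 3142, 2906 and 2869, which fell and whose intensity drops from spot 1 to spot 3 on every array shown. The lower row holds ORB_0511275, ORB_1210381 and ORB_0510307, which rose and do not share a steep drop. ORB_1210381 was lower at spot 3 than at spot 1 on every array shown but ketamine replicate 3. Its mean gap over the 19 arrays was 0.12 log2 units, against 1.42 for 2869.

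Calls were unevenly placed on the array, which has 8 blocks. Falls were 31 of the 428 tested probes in block 3 (7.24%), 17 of 427 in block 1 (3.98%) and 10 of 429 in block 2 (2.33%), so that 58 of the 70 falls were in these 3 blocks. Rises were 21 of 429 in block 6 (4.90%) and 13 of 429 in block 2 (3.03%), 34 of the 46 in all. Block 5 had 3 rises and no fall (0 of 425), and each of blocks 4, 7 and 8 had 1 rise and 2 or 3 falls. By the spotting plate that the probe table names, 25 falls came from plate 3 and 17 from plate 4, 42 of the 70, out of 764 tested probes on both plates. After the median of each block was set to the median of its own array, 61 probes rose and 84 fell.

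**Figure D4:**
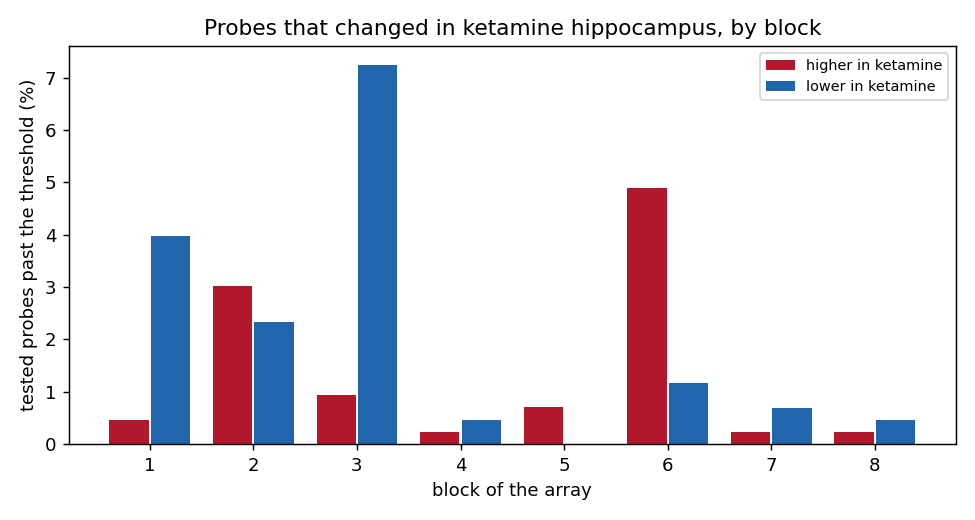
Percent of the tested probes of each array block (horizontal axis, blocks 1 to 8) that were higher in ketamine (red bars) or lower in ketamine (blue bars) by limma. The tallest blue bar is block 3 at 7.24% and the tallest red bar block 6 at 4.90%.

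Among code types, 39 of the 871 number-coded probes fell (4.48%) and 8 rose (0.918%), whereas 30 of the 2384 ORB-coded probes fell (1.26%) and 36 rose (1.51%). Of 156 IGN-coded probes 1 fell and 2 rose. By mean level over the 19 arrays, the share that changed was 0.584%, 0.292%, 1.75%, 7.89% and 6.43% from the dimmest to the brightest of 5 classes of equal size. In the dimmest class 5% of the differences were below -0.13 and 5% above 0.13, against -0.43 and 0.45 in the brightest.

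The top of the scale held no comparison. The 10 probes with the highest means, 2245, 1044, 1021, 1878, 1251, 2983, 3023, ORB_1112342, 2907 and 2280, averaged 16.00 in ketamine and 16.00 in control and were saturated on all 19 arrays, as were 46 probes in all, so their order among these has no meaning. Counting the ketamine and control arrays alone, 55 probes were saturated on all 7 arrays, of which none was called (0 of 55), so a difference between ketamine and control was not measurable for these brightest probes. At the other end, 3141 probes were above background on all 7 arrays. A probe above background on all 3 ketamine arrays and on no control array, and one with the reverse, numbered 1 each.

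The authors' deposited table of processed values lists 747 probes, all of which were tested. It holds 22 of the 116 called probes, 13 rises (1.74% of the 747) and 9 falls (1.20%), or 2.95% together. The 2 largest rises and the 12 largest falls are not in it. The limma fit on the deposited values called 11 probes (1.47%), 3 higher (0.402%) and 8 lower (1.07%) in ketamine, and each of the 11 was also called in the same direction from the scanner values. The scanner and the deposited values come from the same arrays, and the 22 listed calls had the same sign in both. These listed probes are named here because they are the calls that the deposited values also measure, a choice made after their values were seen.

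Of the listed rises, ORB1012 had deposited intensities of 414, 433 and 444 on the ketamine arrays, against 302, 288, 285 and 269 on the control arrays (difference 0.59 log2 units, SE 0.09, adjusted p = 0.00130 on the deposited values). ORB_1210602 had 146, 152 and 154 on the ketamine arrays, against 104, 90, 109 and 104 on the control arrays (0.57, SE 0.12, adjusted p = 0.0131). ORB_1210244 had 288, 295 and 260 on the ketamine arrays, against 241, 209, 203 and 209 on the control arrays (0.38, SE 0.09, adjusted p = 0.0395). No ketamine array of these 3 overlapped a control array. The 10 other listed rises, ORB_0511551, 3096, 3116, ORB_0511552, ORB_1210371, 2233, ORB_1210586, 3246, ORB_0511561 and 1389, did not pass on the deposited values, where their differences were 0.23 (2233) to 0.64 (ORB_0511551).

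Of the listed falls, ORB_1112137 had deposited intensities of 2137, 2180 and 2058 on the ketamine arrays, against 2914, 3739, 3387 and 3639 on the control arrays (difference -0.68, SE 0.14, adjusted p = 0.0131). ORB1295 had 3359, 3563 and 3788 on the ketamine arrays, against 4888, 5608, 5747 and 5298 on the control arrays (-0.59, SE 0.11, adjusted p = 0.0114). Probe 1143, the brightest of the listed falls, had 27080, 29069 and 31040 on the ketamine arrays, against 37606, 44325, 43449 and 38431 on the control arrays (-0.49, SE 0.12, adjusted p = 0.0497). All 3 had separate groups and spots that differed little, the first exceeding the third by 0.02 (ORB_1112137), -0.16 (ORB1295) and -0.10 (1143) log2 units.

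ORB_1210432 had deposited intensities of 112, 138 and 110 on the ketamine arrays, against 176, 207, 211 and 184 on the control arrays (-0.70, SE 0.13, adjusted p = 0.0113). Probe 3252 had 9716, 10016 and 10561 on the ketamine arrays, against 12095, 15370, 17817 and 16564 on the control arrays (-0.60, SE 0.12, adjusted p = 0.0131), with the lowest control array apart from the other 3. Probe 3280 (-0.43, adjusted p = 0.0131), ORB_0908037 (-0.46, adjusted p = 0.0497) and ORB_0409040 (-0.73, adjusted p = 0.0421) passed as well, and 3293 did not (-0.41, adjusted p = 0.136). Of the 9, ORB_0409040 alone had a first spot above the third by more than 0.5, at 2.45 log2 units. The spots of 3252 were uneven in the other direction (-0.47), and its ketamine over control ratio was 0.38 at the first spot, against 0.745 and 0.744 at the others, so that its fall was largest at 1 spot.

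The other treatments show where ketamine arrays lay in relation to slides. L803mts is the 1 treatment whose arrays were on more than 1 slide, with replicate 2 alone on the slide of the highest serial number. That array also stood apart in its signal. Its median foreground was 115 scanner units, against 147 to 154 on the other L803mts arrays, and it had 128 saturated and 4952 not-found spots, against 166 to 182 and 3363 to 3847. Slide and signal cannot be told apart in its values. For ORB_0511275 that array read 13.55, against 11.15, 11.87 and 11.67 on the 3 other L803mts arrays, a gap of 1.99 log2 units from their mean within 1 treatment. For 3142 it read 7.21, against 9.03, 8.87 and 8.50, a gap of -1.59. It thus lay beyond the ketamine arrays for both probes.

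Over the 70 falls, L803mts replicate 2 was below all 3 other L803mts arrays in 60 (85.7%), against 963 of 3421 tested probes (28.1%), and the median gap was -0.45, against 0.01. In the 35 falls with unequal spots it was below in all 35, with a median gap of -0.83, and in the 35 other falls in 25, with a median of -0.23. Over the 46 rises it was above the other 3 in 17 (37.0%), against 31.7% of all tested probes, with a median gap of 0.05. Group means fell in the order of slide serial numbers over the 5 slides that hold a group (L803mts without replicate 2) in 40 of the 70 falls (57.1%), against 81 of 3421 (2.37%). They rose in that order in 10 of the 46 rises (21.7%), against 60 of 3421 (1.75%). The control slide has the lowest of these 5 serial numbers and the ketamine slide the highest, so that such an order is partly fixed by the call itself. A fit with slide as a random block gave 40 rises and 60 falls, but it cannot separate slide from treatment where each group has a slide of its own, and the part of the slide in these calls was not tested.

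Median levels over the 70 falls were 7.80 in ketamine, 8.38 in siGSK3b, 8.06 in L803mts, 8.05 in lithium and 8.67 in control. Over the 46 rises they were 8.92 in ketamine, 8.66 in siGSK3b, 8.74 in L803mts, 8.79 in lithium and 8.50 in control. For both lists ketamine and control were the extremes, as the choice of the lists favours, and the 3 other treatments lay between them.

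**Figure D5:**
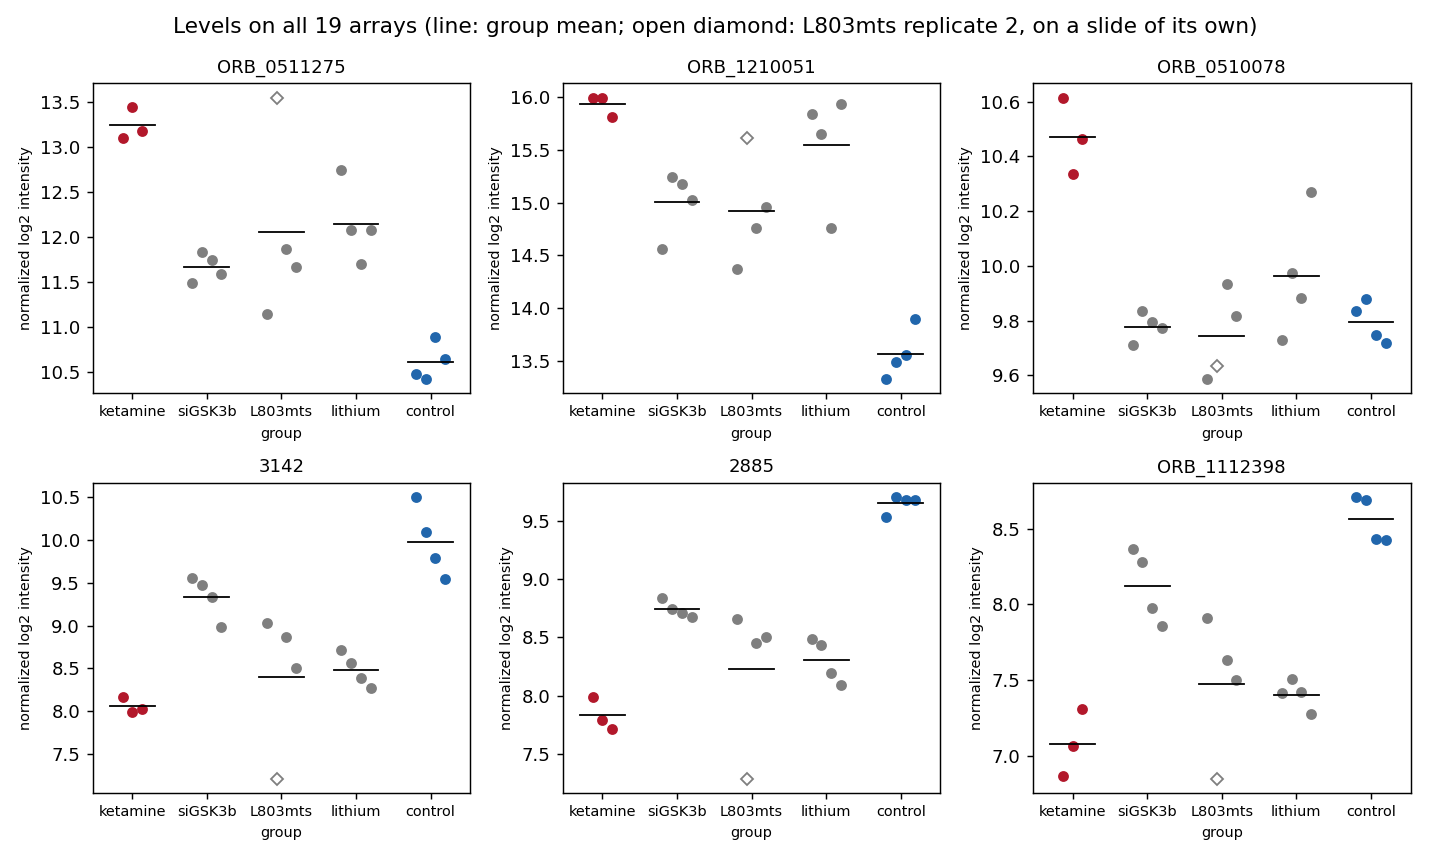
Normalized log2 intensity (vertical axis) on all 19 arrays for 3 rises (upper row) and 3 falls (lower row), with ketamine at the left in red, the 3 other treatments in grey and control at the right in blue. Lines are group means and the open diamond is L803mts replicate 2, which is at 13.55 for ORB_0511275 and at 7.21 for 3142. For ORB_0510078 the ketamine arrays lie above all other arrays.

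Set against the mean of the 3 other treatments, a contrast that uses no control array, 44 of 3421 probes differed in ketamine (1.29%), 25 higher (0.731%) and 19 lower (0.555%). Of the 44, 9 were also called higher than control and 4 lower than control, while 31 were not called against control. Against control 3.39% of all tested probes were called. The same 3 ketamine arrays enter this contrast and the one with control, so calls shared between them are no independent support. None of the 44 had unequal spots (0 of 44), which is near the share over all tested probes (78 of 3421, 2.28%). The count rested on single arrays, with 0 calls without ketamine replicate 1, 1 without replicate 2 and 38 without replicate 3 in limma. With median scaling it was 1, and 446 probes had an unadjusted p under 0.05 in the full fit.

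ORB_0510078 was higher in ketamine than in the other treatments and than in control. Its ketamine arrays, given above, started at 10.34. The siGSK3b arrays ended at 9.84, the L803mts arrays at 9.93, the lithium arrays at 10.27 and the control arrays at 9.88. The difference from the other 3 treatments was 0.64 log2 units (SE 0.09, adjusted p = 0.00668), and it held against each of them alone, at 0.69, 0.73 and 0.51 (adjusted p = 0.0120, 0.00575 and 0.0468). Neither ORB_0511275 (1.28, SE 0.32, adjusted p = 0.0654) nor ORB_1210051 (0.78, SE 0.24, adjusted p = 0.118) passed against the other treatments, and neither did any of the 12 largest falls, whose differences were -0.44 (2869) to -0.86 (ORB_0511182).

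The other 4 of the 5 largest rises against the other treatments did not pass against control. ORB_0511135 had levels of 12.13, 11.91 and 11.51 on the ketamine arrays, against ranges of 11.13 to 11.44 (siGSK3b), 11.05 to 11.24 (L803mts), 11.17 to 11.75 (lithium) and 11.66 to 11.85 (control). It differed from the other treatments by 0.60 (SE 0.12, adjusted p = 0.0265) and from control by 0.08 (adjusted p = 0.879), with ketamine and control arrays overlapping. ORB_1112179 (0.66, adjusted p = 0.0356), ORB__0908021_3 (0.61, adjusted p = 0.0290) and ORB_0510362 (0.59, adjusted p = 0.0390) had differences from control of 0.28, 0.17 and 0.55.

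Downward, ORB_1112475 had levels of 12.50, 12.58 and 12.67 on the ketamine arrays, against ranges of 13.14 to 13.22 (siGSK3b), 13.09 to 13.71 (L803mts), 12.92 to 13.07 (lithium) and 12.87 to 13.26 (control). All 3 ketamine arrays were below every other array of the series, and the difference from the other treatments was -0.60 (SE 0.09, adjusted p = 0.0124). ORB_0511371 had levels of 12.43, 12.73 and 12.63 on the ketamine arrays, against ranges of 13.05 to 13.14 (L803mts), 13.01 to 13.51 (lithium) and 12.89 to 13.40 (control), with all siGSK3b arrays above the ketamine arrays too. It differed by -0.56 from the other treatments (SE 0.11, adjusted p = 0.0290) and by -0.65 from control (adjusted p = 0.00990). Probe 1970 (-0.61, adjusted p = 0.0290), ORB_1112136 (-0.58, adjusted p = 0.0188) and ORB_1112467 (-0.51, adjusted p = 0.0356) were lower than the other treatments, and their differences from control of -0.33, -0.41 and -0.41 did not pass. Each of these 10 probes lost its call without ketamine replicate 1.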

How the data were processed

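Small RNA of 19 hippocampal samples was measured on 1-colour arrays labelled with the Oyster-550 dye. Per the file headers, the intensity values of the scanner files were read with GenePix Pro 4.1.1.4 at 532 nm and a PMT gain of 600 and were not normalized. Each file covers a slide of 4 arrays, and only the 8 blocks that the labels give to a sample were used. Cells with decimals in the authors' deposited table, whose intensity unit is linear, were multiplied by 1000 (4778 cells), after which each column correlated with its own array at 0.99996 or more. Column medians were 315 to 352. The median ratio of a column to its background-subtracted scanner values ran from 0.78 (control replicate 1) to 1.58 (L803mts replicate 2), so the deposited table was rescaled by array. The authors' normalization and any centring are not given in the sources used here.

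Background was corrected with normexp (offset 50). After log2 transformation, a probe's 3 spots were averaged without bad-flagged spots (88 on ketamine replicate 1) and arrays were quantile normalized, with limma 3.58.1 under R 4.3.3 (files read with version 1.17.8 of data.table). The 40 control and blank spots were left out. Tested probes (3421 of 3432) exceeded local background by more than 2 background SDs on at least 3 of 19 arrays, and 3003 did on all 19. The SD came from each array's local background medians. Group means of all 5 groups were fitted over the 19 arrays with lmFit and eBayes (14 residual degrees of freedom), two-sided, with Benjamini-Hochberg adjustment per contrast and a threshold of 0.05. The limma fit alone was tested on simulated data, drawn around the normalized probe means with independent noise. Background correction, spot averaging, normalization and slides were not simulated. The precision of the results is limited by 3 and 4 arrays.

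Named were the 12 largest rises and 12 largest falls past the threshold with groups that did not overlap, the 10 brightest probes, the 5 largest rises and 5 largest falls against the other treatments, and the 3 lowest adjusted p. The members and lists were chosen with earlier results of these data known. Alternatives covered background correction, normalization, filters, spot handling, moderation, blocks and single arrays left out.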

Additional observations from a re-analysis of the deposited data

Results flagged for a closer look

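Dixon's test of the lowest or highest of the 4 control arrays was run 59 times, on array measures and named probes, and marked 4 values, while chance marks about 1 in 20. Control replicate 4 had 4167 not-found spots, against 3658 to 3714 on the 3 other control arrays. Control replicate 1 was the lowest control array for 3 probes, at 9.54 for 2885, at 12.89 for ORB_0511371 and at 13.57 for 3252. The ketamine group of 3 arrays was not tested in this way.

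The difference between ketamine and the 3 other treatments was tested as a contrast in limma. The 10 probes named for this contrast were picked among those that passed it, so their passing was fixed by the choice. Probes named for other reasons passed it too, among them ORB_1210381, ORB_0510307, ORB1012 and 3282 (adjusted p = 0.0260, 0.0350, 0.0356 and 0.0356). For the 10, the difference was 0.66 for ORB_1112179, 0.64 for ORB_0510078, 0.61 for ORB__0908021_3, 0.60 for ORB_0511135 and 0.59 for ORB_0510362. It was -0.61 for 1970, -0.60 for ORB_1112475, -0.58 for ORB_1112136, -0.56 for ORB_0511371 and -0.51 for ORB_1112467. These values are in log2 units, and slide and treatment cannot be told apart in them.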

How the results depend on the processing

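Of 35 named results, 13 kept their direction and their side of the threshold in every alternative run and none reversed (0 of 35). Most of the 13 are falls with unequal spots, on which the alternative without such probes could not be run. The count of 116 changed probes became 74 with median scaling (6 rises) and 50 with not-found spots left out (2 rises). On the deposited table, which holds only 747 of the tested probes, it was 11 (3 rises, 8 falls). The main fit called 22 of these 747. Alternatives chosen after seeing the data gave 60 without unequal-spot probes (25 falls), 65 with the third spot alone (22 rises, 43 falls), 25 rises with the first spot alone, and 11 on the scanner values of the deposited table's probes alone (4 rises, 7 falls). Rises were 30 with ketamine and control arrays only and 76 with array weights. Leaving out 1 array gave 69 (without ketamine replicate 1) to 119 changed probes (without control replicate 1), 24 to 53 rises and 42 to 66 falls. The count was 72 without ketamine replicate 2 and 73 without control replicate 2, and rises were 28 without control replicate 4.

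The count of 44 against the other treatments became 25 with plain subtraction, 1 with median scaling, 70 with trend and robust moderation, 109 with array weights, 87 with block medians centred, 9 with not-found spots left out, 24 with the median of the spots, 10 with the third and 3 with the first spot alone, 100 without L803mts replicate 2, and 0 to 38 without 1 ketamine array. The causes were not tested. With the replicate number as a block, 107 probes changed against control and 40 against the other treatments. Deviations of same-numbered ketamine and control arrays correlated at 0.35, -0.01 and 0.34, against -0.43 to 0.25 for arrays of different number. The main fit treated the arrays as unpaired. The numbers follow the position on the slide in these 2 groups, and on all other arrays but L803mts replicate 2. The fit with that block thus also adjusted for position, and an effect of position itself was not tested. Saturation limits the brightest probes, and 3 ketamine arrays on 1 slide limit the rest.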
